A study of Mus musculus with 6 samples.

Results

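Complex I of the respiratory chain, the NADH:ubiquinone oxidoreductase, was followed through the 46 genes of the table whose symbol starts with Nduf, out of 17666 genes in all. The choice used the symbol alone: 38 rows name subunits (Ndufa, Ndufb, Ndufc, Ndufs, Ndufv and Ndufab) and 8 name assembly factors (Ndufaf). RNA was sequenced from auditory nerves microdissected from the cochleas of young adult C57 mice aged 1.5 to 2.5 months, with the 2 cochleas of a mouse pooled as 1 sample. A group of 3 samples was wildtype and the other 3 were labelled FactorB KO, a knockout of Cfb, which encodes the complement protease factor B. The substrain, the sex, the design of the targeted allele and the number of litters are not stated in the sources used here, and the purpose stated for the series is the molecular change that goes with a lack of factor B in this nerve.

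Complex I takes electrons from NADH and passes them through iron-sulfur clusters to ubiquinone, and it uses the energy to pump protons across the inner mitochondrial membrane. The enzyme is L-shaped: a matrix arm holds the NADH-oxidising and quinone-reducing modules, and a membrane arm holds the proton pumps. Core subunits carry the chemistry, accessory subunits surround them, and assembly factors help to build the enzyme and then leave it. Spiral ganglion neurons, whose axons form the auditory nerve, fire at high rates and are rich in mitochondria. Subunits encoded by mitochondrial DNA are not analysed here.

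The deposited values are whole numbers that, as read from the values, appear scaled between libraries and are called normalized counts here. They summed to between 38675077 and 41496282 per library, so the read depth is unknown. Cfb itself was higher, not lower, under the knockout label, with 55, 39 and 116 normalized counts against 336, 351 and 376. Its log2 difference was 2.47 (SE 0.38, adjusted p = 0.107 by limma), with a rate of 1.8e-06 in the authors' deposited table. Since the design of the targeted allele is not stated, these counts cannot show whether the labels hold. All directions are thus those of the labels. Markers of the nerve were abundant in all 6 libraries: the 10 spiral ganglion neuron markers summed to between 327086 and 560105 and the 8 Schwann cell and myelin markers to between 400769 and 734531. The neuron markers had a median log2 difference of 0.21, with 4 of 10 below 0, and the Schwann cell and myelin markers -0.21, with 6 of 8 (49.3% of all genes). The authors' deposited table called Map2 of the first list as higher (4.14% of genes with a rate) and Pmp22 of the second as lower (3.25%). The part of these cells in the values below was not tested.

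Transcripts of complex I subunits were lower under the knockout label, by a modest amount. Summed over the 38 subunit rows, the normalized counts were 137893, 159139 and 146723 under the wildtype label and 115805, 115872 and 109405 under the knockout label. The groups did not overlap, and the means of 147918 ± 10673 and 113694 ± 3715 (SD, n = 3 each) differed 1.30-fold. Of the 38 subunits, 36 had a log2 difference below 0, against 49.3% of all genes. The median was -0.44 on the log2(value + 1) scale, against 0.01 over all genes tested, and the single values ran from -0.80 to 0.03. In tissue RNA of this kind, fewer mitochondria-rich cells and less RNA per cell cannot be told apart.

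By limma with Benjamini-Hochberg adjustment over all genes, 0 of the 38 subunits passed an adjusted p of 0.05, against 0.0566% of all genes called as lower and 0.102% called as higher. At an unadjusted p under 0.05, limma gave 28 subunits, all lower, against 9.2% of all genes. In 31 subunits every library labelled knockout lay below every library labelled wildtype, a pattern held by 14.9% of all genes. The opposite pattern was held by 0 subunits and by 13.6% of all genes. The authors' deposited table called 19 of the 38 subunits, all of them lower, at a false discovery rate under 0.05, against 3.25% of the genes that have a rate; it called 0 subunits as higher, against 4.14%. Their fold changes in the authors' deposited table ran from 1.32 to 1.75. Short transcripts of the whole table tended to be lower under the knockout label. With that trend on transcript length taken out, the subunit median was -0.15, with 33 of 38 below 0 (50.9% of all genes) and 5 above (49.1%). Then 7 subunits were lower at an unadjusted p under 0.05, against 7.57% of all genes, and 0 higher, against 7.45%.

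**Figure D1:**
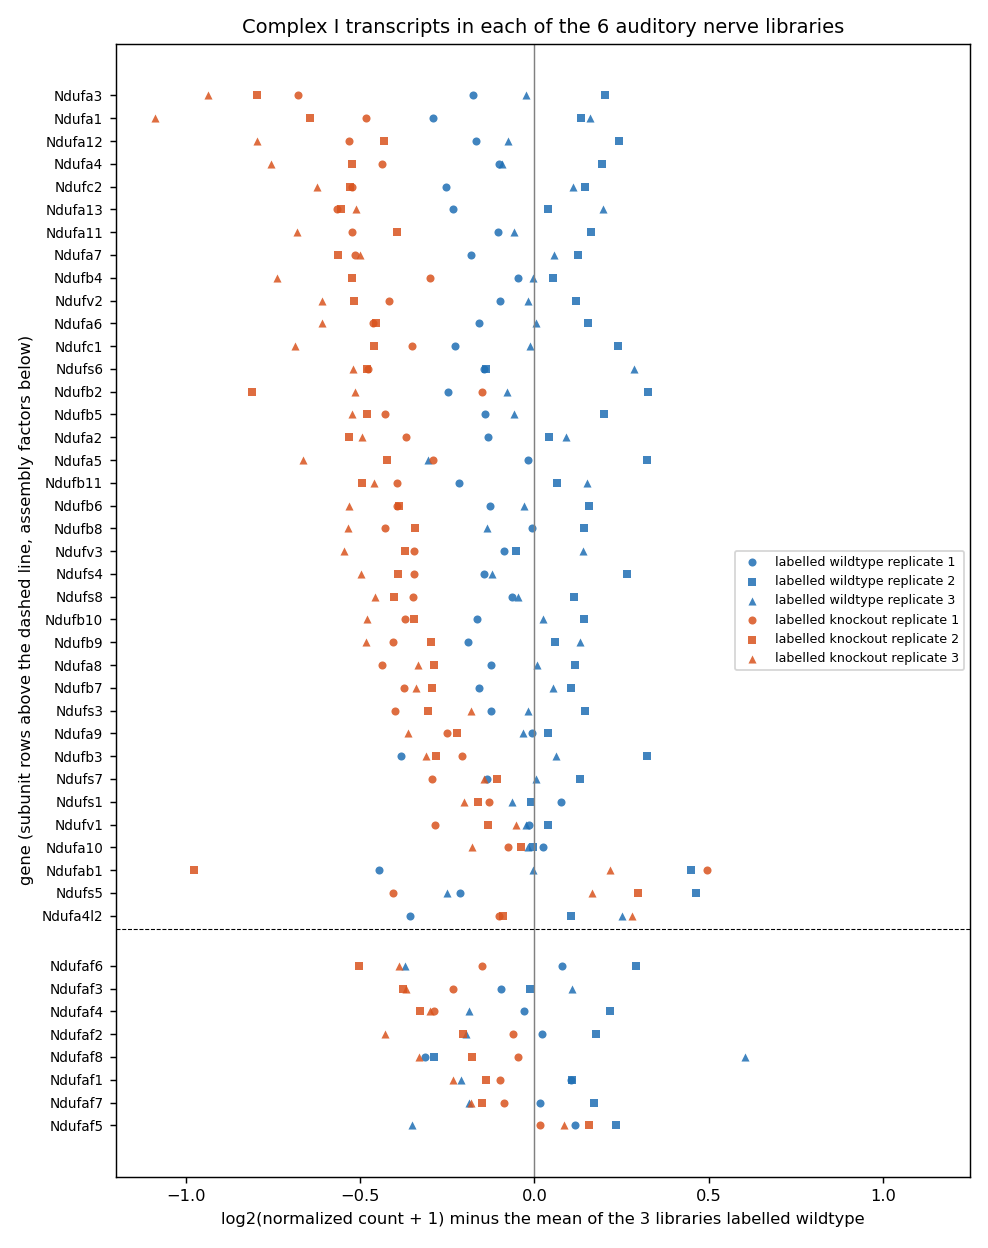
Each row is a gene and each point a library; the x axis is the log2(normalized count + 1) minus the mean of the 3 libraries labelled wildtype, and genes are sorted by their difference, with all but 1 of the 38 subunit rows above the dashed line and the 8 assembly factors below. For most subunits the 3 points of the libraries labelled knockout lie to the left of the other 3, while 6 of the 8 assembly factors have overlapping groups.

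The libraries differed within each label as well. Wildtype replicate 2 was the highest of the 6 libraries for 27 of the 38 subunits, and knockout replicate 3 was the lowest for 23. The mean log2 deviation of the subunits from the 6-library mean was 0.05, 0.34 and 0.20 in wildtype replicates 1, 2 and 3 and -0.15, -0.19 and -0.25 in knockout replicates 1, 2 and 3. Leaving out each library in turn gave subunit medians from -0.49 to -0.36, the latter without wildtype replicate 2. The number of subunits at an unadjusted p under 0.05 was 26 without wildtype replicate 2 and 20 without knockout replicate 3.

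The 7 nuclear-encoded core subunits, which hold the flavin and the iron-sulfur clusters or line the path to ubiquinone, had a median log2 difference of -0.18. Of these, 7 of 7 were below 0 (49.3% of all genes). The authors' deposited table called 2 as lower (3.25% of genes with a rate). The 29 accessory subunits, with Ndufa4 and its paralogue left out, had a median of -0.46, with 28 of 29 below 0 and 16 called there. After the length correction these medians were -0.07 and -0.17. Whether core and accessory subunits differ was not tested.

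In the NADH-oxidising module at the tip of the matrix arm, 8 of 8 subunits had groups that did not overlap (14.9% of all genes, lower), and 5 were called as lower in the authors' deposited table (3.25% of genes with a rate). Ndufv1, which binds NADH and carries the flavin, had 8172, 8486 and 8128 normalized counts under the wildtype label and 6785, 7536 and 7956 under the knockout label. Ndufv2, its iron-sulfur partner, had 6744, 7838 and 7131 against 5407, 5047 and 4737. Ndufs1, the large iron-sulfur subunit, had 11026, 10391 and 10012 against 9557, 9363 and 9108. All 3 were lower in each library labelled knockout, but the gap was wide for Ndufv2 and narrow for the other two. The log2 difference of Ndufv2 was -0.51 (SE 0.11, adjusted p = 0.158 by limma), and in the authors' deposited table it was lower 1.43-fold with a rate of 0.00247. Its difference was -0.34 after the length correction (unadjusted p = 0.00625 by limma). For Ndufs1 and Ndufv1 the differences were both -0.16, with standard errors of 0.10 and 0.11.

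Around them sit small accessory subunits. Ndufa2, a thioredoxin-like protein, had 2870, 3237 and 3348 normalized counts under the wildtype label and 2438, 2175 and 2232 under the knockout label. Ndufa12 had 799, 1062 and 852 against 621, 665 and 517. Ndufv3 had 3010, 3084 and 3524 against 2518, 2474 and 2192. In each of these genes the groups were apart, with log2 differences of -0.46, -0.59 and -0.42. Ndufs6, which binds zinc, had 1526, 1533 and 2058 against 1213, 1210 and 1176, with a difference of -0.49 and the 3 knockout-labelled values nearly equal. Ndufs4, whose loss in mice gives a model of mitochondrial encephalopathy, had a difference of -0.41 and was not called in the authors' deposited table (rate 0.0933). After the length correction Ndufa12 (-0.32), Ndufs4 (-0.29) and Ndufv2 were the members of this module at an unadjusted p under 0.05 by limma.

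The 5 members of the quinone-reducing module had a median log2 difference of -0.30. Ndufs7, which helps to form the quinone-binding site, had 3287, 3957 and 3625 normalized counts under the wildtype label and 2949, 3352 and 3270 under the knockout label. Its groups overlapped, and its difference was -0.18. Ndufs3, a scaffold of the module, had 1262, 1522 and 1359 against 1043, 1115 and 1214, which were close but apart. Ndufs8, an iron-sulfur subunit, was the 1 member of the 5 that the authors' deposited table called, lower 1.32-fold with a rate of 0.0137. Its values were 3363, 3808 and 3403 against 2765, 2663 and 2564, and its log2 difference was -0.40 (SE 0.10). Ndufa5 overlapped between the groups (-0.46). After the length correction the difference of Ndufs7 was 0.08 and the median of the module -0.07.

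At the interface of the matrix arm with the membrane, Ndufa6, which docks the acyl carrier subunit, had 4132, 5128 and 4622 normalized counts under the wildtype label and 3346, 3364 and 3024 under the knockout label. Ndufa7 had 2641, 3268 and 3116 against 2097, 2028 and 2117. Both pairs of groups were well apart, with log2 differences of -0.51 and -0.53, and both genes were called as lower in the authors' deposited table. Ndufa9, a nucleotide-binding subunit, had a difference of -0.28 and was not called there. The 3 differences were -0.14, -0.19 and -0.11 after the length correction.

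The proximal membrane arm held the lowest values of all. Ndufa3, a small membrane subunit encoded on chromosome 7 (3617373 to 3620327, mm10, plus strand), had 2603, 3382 and 2892 normalized counts under the wildtype label and 1840, 1696 and 1536 under the knockout label. No value of the second group came near the first, and the means of 2959 ± 394 and 1691 ± 152 (SD, n = 3 each) differed 1.75-fold. Its log2 difference was -0.80 (SE 0.13, adjusted p = 0.121 by limma), and its rate in the authors' deposited table was 1.04e-04. Over the alternatives its adjusted p by limma ran from 0.0436, without wildtype replicate 3, to 0.480, and after the length correction its difference was -0.44 (unadjusted p = 0.00211). Ndufa1, another small membrane subunit, encoded on chromosome X (37187588 to 37191163, minus strand), had 730, 980 and 997 against 639, 572 and 420. The log2 difference of Ndufa1 was -0.74 (SE 0.20), and knockout replicate 3 was the lowest of its libraries.

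Of the other proximal subunits, Ndufa13, known also as a cell death regulator, had 4710, 5688 and 6353 normalized counts under the wildtype label and 3741, 3776 and 3889 under the knockout label. Ndufa11 had 3921, 4719 and 4044 against 2934, 3208 and 2628. Ndufc2 had 3269, 4312 and 4211 against 2714, 2702 and 2531. These 3 genes had differences of -0.54, -0.53 and -0.56, and the authors' deposited table called each of them as lower. Ndufa13 shares 30.0% of its annotated exon bases with Tssk6 on the opposite strand, and whether counting used strand is not given in the sources used here, so reads of both genes cannot be told apart there. Ndufc1 (-0.50) and Ndufa8 (-0.35) were apart between groups and were not called. Ndufa10, a nucleoside kinase-like subunit and the longest transcript of this arm at 2020 bases, had 5174, 5069 and 5018 against 4823, 4949 and 4495, a difference of -0.10.

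In the distal membrane arm, 11 of 11 measured members were below 0 (49.3% of all genes), with a median of -0.43. The authors' deposited table called 5 as lower (3.25% of genes with a rate). Ndufb5 had 4777, 6057 and 5064 normalized counts under the wildtype label and 3915, 3777 and 3669 under the knockout label. Ndufb8, a subunit often probed as a marker of assembled complex I, had 5747, 6373 and 5257 against 4290, 4557 and 3988. Ndufb10 had 4385, 5419 and 4994 against 3800, 3865 and 3520. The groups of these 3 genes were apart, with differences of -0.48, -0.43 and -0.40. Ndufb6 had 2747, 3342 and 2941 against 2284, 2291 and 2076, and Ndufb11, on chromosome X, had 2557, 3111 and 3300 against 2260, 2111 and 2159. Their differences were -0.44 and -0.45. Ndufb6 shares 39.0% of its exon bases with Smim27, Ndufb11 shares 12.9% with Rbm10 and Ndufb5 shares 12.2% with Mrpl47, all on the opposite strand. Ndufb9 shares 28.6% with Gm49356 and Ndufb8 5.75% with Gm20538 on the same strand, so part of the counts of these 5 genes is uncertain. The same holds for Ndufb2, which shares 3.31% with Gm42420 on the same strand. In other modules Ndufa2 shares 11.5% with Tmco6, Ndufs1 8.80% with Ino80dos and Ndufs3 8.41% with Kbtbd4, on the opposite strand. Some further members have smaller shares. Ndufb4, Ndufb7 and Ndufb9 were apart between groups without a call, and Ndufb2, Ndufb3 and Ndufab1 overlapped. The difference of Ndufb3, -0.27, was -0.46 without wildtype replicate 1 and -0.11 without wildtype replicate 2.

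Ndufa4 carries a complex I name and is now placed with cytochrome c oxidase. It had 11480, 14078 and 11536 normalized counts under the wildtype label and 9090, 8572 and 7298 under the knockout label, with a difference of -0.57 and a rate of 0.0118 in the authors' deposited table. Its paralogue Ndufa4l2, which hypoxia induces, had 102, 141 and 156 against 122, 123 and 159. The groups of Ndufa4 were apart and those of Ndufa4l2 overlapped (0.03, SE 0.24). Leaving out both genes gave the remaining 36 subunits a median of -0.44 and 27 at an unadjusted p under 0.05 by limma.

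**Figure D2:**
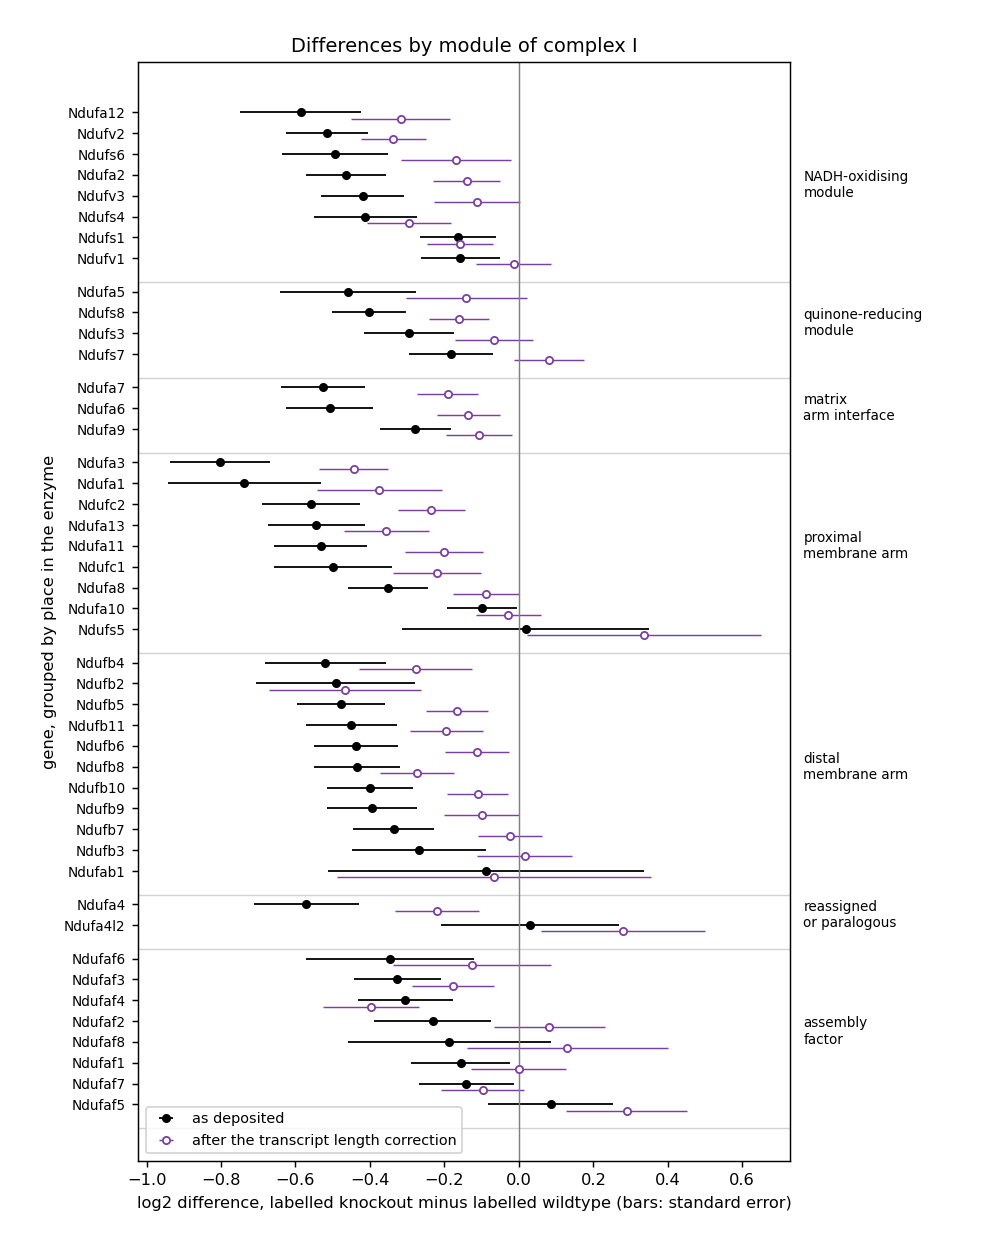
The x axis is the log2 difference, labelled knockout minus labelled wildtype, with bars for the standard error, and genes are grouped on the y axis by their place in the enzyme; filled points are the values as deposited and open points those after the transcript length correction. The filled points of the proximal membrane arm reach from -0.80 for Ndufa3 to 0.02 for Ndufs5, and most open points lie nearer 0.

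Levels per length separated a few subunits from the rest. Divided by transcript length, the mean of the wildtype label was 26880 normalized counts per kilobase for Ndufa4, 12113 for Ndufa6 and between 1079 and 8479 for the other subunits but 5. Below them lay Ndufb2 (766), Ndufb4 (416), Ndufa4l2 (142), Ndufs5 (77.9) and Ndufab1 (68.5), the mitochondrial acyl carrier protein. For Ndufb2 and Ndufab1 these levels rest on median annotated lengths of 2413 and 2447.5 bases. Both also have short annotated transcripts: 316 bases make up 69.5% of 1 transcript of Ndufb2, and 381 bases 84.3% of 1 of Ndufab1. On a short transcript their levels would be higher, so the low place of Ndufb2, with a wildtype mean of 1848, depends on the length taken. Near-identical copies bear on such low values: 12 members have at least 1 annotated processed pseudogene with 90% identity over 50% or more of the member's transcript. For Ndufab1 there are 2 copies with 99.7% identity, and its values of 119, 222 and 162 against 229, 82 and 189 scattered without order. Of the 15 copies, 1 is listed in the table, the copy of Ndufs5.

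Ndufs5, a small subunit of the membrane arm that faces the intermembrane space, had 39, 63 and 38 normalized counts under the wildtype label and 34, 56 and 51 under the knockout label. BC002163, an intronless copy on chromosome 16 (42955631 to 42955949, mm10, plus strand), had 2178, 2762 and 2468 against 1880, 1955 and 1745. The copy matches 319 bases of the Ndufs5 coding sequence of 321 bases, with 2 mismatches. Bases 63 to 122 of the coding sequence hold both, and are shown because over the aligned bases nothing else separates the 2 genes. Mismatches are in capitals, and the sequences come from the GENCODE M21 transcripts.
Ndufs5: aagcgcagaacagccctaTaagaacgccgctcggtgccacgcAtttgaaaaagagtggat
BC002163: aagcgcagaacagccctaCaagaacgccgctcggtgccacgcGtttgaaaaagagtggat
Their values are thus uncertain one by one. Summed, they gave 2217, 2825 and 2506 normalized counts under the wildtype label and 1914, 2011 and 1796 in the others. The sums were apart, with a log2 difference of -0.39, near the subunit median, while Ndufs5 alone had 0.02. How the counting divided reads between them was not tested.

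The 8 assembly factors lay closer to 0 than the subunits. Their sums were 7309, 8073 and 6601 normalized counts under the wildtype label and 6606, 6405 and 6203 under the knockout label, which overlap by a narrow margin. The median log2 difference was -0.21, with 7 of 8 below 0 (49.3% of all genes), and it was -0.13 without knockout replicate 3. None of the 8 passed by limma or in the authors' deposited table. An unadjusted p below 0.05 by limma was reached by 2, both lower, against 9.2% of all genes, and by 0 without knockout replicate 3. Ndufaf3, a partner in building the quinone module, had 880, 934 and 1015 against 800, 725 and 729 and was apart between groups (-0.33, SE 0.12). Ndufaf4, which works with it, had 1867, 2214 and 1671 against 1561, 1516 and 1548 and was apart as well (-0.30, SE 0.13). At 3632 bases its transcript was long for a member, and its length-corrected difference was -0.40 (unadjusted p = 0.0178 by limma).

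Other assembly factors overlapped between groups. Ndufaf6 had 231, 268 and 169 normalized counts under the wildtype label and 197, 154 and 167 in the others. Ndufaf7, a methyltransferase, had 1113, 1239 and 965 against 1035, 990 and 969. Ndufaf5, which hydroxylates Ndufs7, had 1284, 1393 and 927 against 1197, 1318 and 1256. In each of these, wildtype replicate 3 was the lowest of its label, and the differences were -0.35, -0.14 and 0.09. Ndufaf1 (-0.16), Ndufaf2 (-0.23), the paralogue that holds the place of Ndufa12 during assembly, and Ndufaf8 (-0.19) completed the set. After the length correction the median of the 8 was -0.05. Of 11 measured assembly factors that carry other names, 9 were below 0 (49.3% of all genes), with a median of -0.19. Tmem126a (-0.64) was the 1 gene called in the authors' deposited table (3.25% of genes with a rate, lower). The abundant Acad9 had 0.03. Whether assembly factors differ from subunits was not tested.

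Transcript length moved with these differences across the whole table. Among genes with a mean of at least 50, the shortest decile, up to 1149 bases, had a median log2 difference of -0.34, and the longest decile, from 5775 bases, had 0.40. Complex I subunits are short: their median transcript length was 810 bases, against 2569 over all genes, and 26 subunits fell in the shortest decile, where their median was -0.46. Across the 38 subunits the difference went with log2 length (Pearson r = 0.52, Spearman rho = 0.55), a description over genes that share the same 6 libraries. In the shortest decile, as in the subunits, wildtype replicate 2 was the highest and each knockout-labelled library was below 0, with median deviations of 0.01, 0.29 and 0.19 in wildtype replicates 1, 2 and 3 and of -0.12, -0.18 and -0.18 in knockout replicates 1, 2 and 3.

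With the length trend of each library removed, the mean deviation of the subunits was 0.05, 0.10 and 0.08 under the wildtype label and -0.05, -0.06 and -0.10 in the others. The groups were still apart by this mean, with a smaller gap. Of the 38 subunits, 20 had groups that did not overlap, lower under the knockout label, against 13.7% of all genes. The 7 subunits at an unadjusted p under 0.05 were Ndufa3, Ndufa13, Ndufv2, Ndufa12, Ndufs4, Ndufb8 and Ndufc2, all lower. After adjustment by limma 0 were lower, against 0.0458% of all genes, and 0 higher, against 0.0858%. The correction left the shortest decile of all genes at -0.07. What gives rise to the length trend was not tested.

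**Figure D3:**
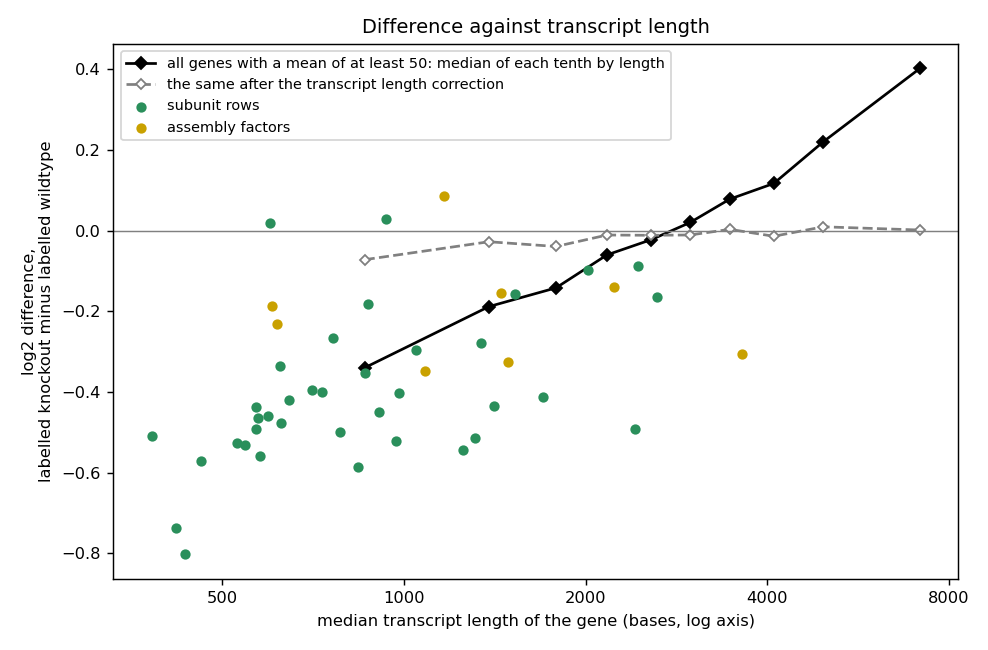
The x axis is the transcript length in bases on a log scale and the y axis the log2 difference, labelled knockout minus labelled wildtype; diamonds are medians of deciles of all genes by length, before and after the correction, and dots are the members. The black line climbs from -0.34 to 0.40, and most subunit dots lie at its short end.

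The other respiratory complexes, which take the electrons onward and make ATP, showed values like those of complex I. Complex II had a median of -0.38 with 8 of 8 genes below 0 and complex III -0.47 with 8 of 9. Complex IV had -0.40 with 11 of 11 and the ATP synthase -0.46 with 15 of 15, against 49.3% of all genes below 0. None of these genes passed by limma after adjustment, while 5, 8, 8 and 11 of them were lower at an unadjusted p below 0.05, against 9.2% of all genes. The authors' deposited table called 2, 4, 4 and 7 of them, all lower, against 3.25% of genes with a rate. The lowest difference of each list was -0.53 for Sdhd, a membrane anchor of complex II, and -0.58 for Uqcr10 of complex III. It was -0.71 for Cox8a of complex IV and -0.67 for Atp5j2 of the ATP synthase. The 2 most abundant genes of complex III, Uqcrc2 and Uqcrc1, which encode its core proteins, had -0.39 and 0.03, and those of the ATP synthase, Atp5b and Atp5a1, which encode its catalytic head, had -0.10 and -0.21. Sdha, the flavoprotein of complex II, had -0.12. After the length correction the 4 medians were -0.24, -0.22, -0.18 and -0.20, so the value of complex I, -0.15, was not the lowest. All these comparisons rest on the same 6 libraries.

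Genes that drive mitochondrial biogenesis lay on both sides of 0. The 12 regulators had a median of 0.02, with 6 below 0, and limma called none after adjustment. An unadjusted p below 0.05 was reached by 2, both higher, against 10.8% of all genes. Ppargc1b, a coactivator of mitochondrial genes, had 360, 145 and 224 normalized counts under the wildtype label and 451, 581 and 581 under the knockout label, and the authors' deposited table gave it a fold of 2.21 with a rate of 0.0215, higher under the knockout label. Its groups were apart, with a log2 difference of 1.23. Ppargc1a, the better known coactivator, had 0.27 (SE 0.13) and Esrra, a nuclear receptor that works with both, -0.24. Citrate cycle genes had a median of -0.17, with 9 of 11 below 0, against 49.3% of all genes. Idh3g, a subunit of isocitrate dehydrogenase (-0.44), was the 1 called in the authors' deposited table, against 3.25% of genes with a rate called as lower.

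**Figure D4:**
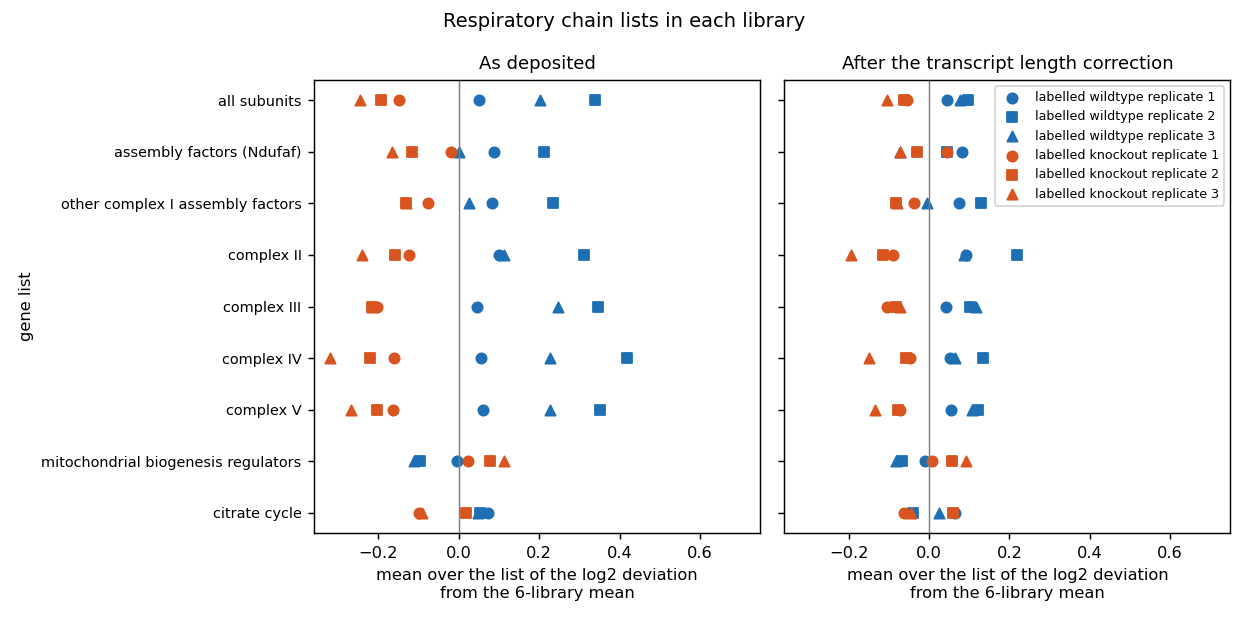
Each row is a gene list and each point a library; the x axis is the mean over the list of the log2 deviation from the 6-library mean, as deposited on the left and after the transcript length correction on the right. The subunits of complex I span 0.34 to -0.25 on the left and 0.10 to -0.10 on the right, and the lists of complexes II to V show the same separation of labels. The mean of the biogenesis regulators has the opposite order on the left, from -0.11 to 0.11. That list has 6 of 12 genes below 0 and a median log2 difference of 0.02, and its mean includes Ppargc1b at 1.23.

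Markers of other cell types moved between libraries, and their part in the values above was not tested. Skeletal muscle, a tissue rich in mitochondria, was traced by 8 of 8 markers, which summed to 132, 987 and 198 normalized counts in wildtype replicates 1, 2 and 3 and to between 70 and 168 in the others; none was at 0 in every library. Wildtype replicate 2 thus stood out for muscle and for complex I, though its muscle sum was 987 of 38675077 normalized counts in all. It was also the highest for the Schwann cell and myelin markers (734531) and for the shortest length decile (median deviation 0.29). Without wildtype replicate 2 the subunit median was -0.36. Red cell markers, 9 of 9 rows, summed to between 10828 and 34669 under the wildtype label and between 2727 and 4001 in the others. The rows Hbb-bt and Hbb-b2 hold identical values in every library, so these sums count them 2 times. Neutrophil and marrow markers, 8 of 8, summed to between 756 and 2308 against 24 to 695. Wildtype replicate 3 was the highest for both, and without it the subunit median was -0.42. Organ of Corti markers, 8 of 8, summed to 8222 to 18339 against 17088 to 32071, which overlap, with a median log2 difference of 1.04. Lateral wall markers, 6 of 8 measured, were highest in wildtype replicate 3, with 938171 against 399313 to 525857 in the other libraries. Bone markers, 8 of 8, summed to 8484 to 14549 against 8684 to 12189, a sum held mostly by Col1a1 and Dmp1. Of the 8, 4 were apart between groups and lower, against 14.9% of all genes. The authors' deposited table called Bglap, Bglap2 and Ibsp as lower, against 3.25% of genes with a rate. It also called as lower the 9 red cell rows, 5 of the 8 neutrophil and marrow markers, and Acta1 and Ckm of muscle. Tecta and Otog of the organ of Corti were called as higher, against 4.14%. No lateral wall or macrophage marker was called there. Bglap, which encodes osteocalcin of bone-forming cells, had 947, 403 and 780 against 124, 134 and 234. Macrophage markers, 8 of 8, summed to 8386 to 8545 against 7942 to 9033.

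Nuclear genes of the respiratory chain are known to share promoter elements for NRF1, ETS factors and YY1, and since most members lay on the same side of 0, their promoters were searched for these letters. RefSeq promoters of GRCm38.p6 were at hand for 40 of the 46 members. Each window had 300 bases, of which 250 lie before the start and the rest from the start on. The NRF1 letters (GCGC, any base, then TGCGC), on either strand, occurred in 9 of the 40 members (22.5%), against 5.19% of all 27025 genes with a promoter. The ETS letters CCGGAAG occurred in 6 (15%, against 9.93%) and the YY1 letters ATGGCGGC in 7 (17.5%, against 2.60%). Within the 250 bases before the start, the YY1 letters were found in Ndufa7 alone. The YY1 matches of Ndufa9, Ndufaf8, Ndufb5, Ndufs4, Ndufs6 and Ndufs7 thus reach into the bases from the start on. So do the NRF1 matches of Ndufa6 and Ndufaf5 and the ETS match of Ndufs8. No motif contains another. Members with the NRF1 letters had a median log2 difference of -0.46 and those without -0.41. For ETS the 2 medians were -0.32 and -0.44, and for YY1 -0.41 and -0.42.

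Of these promoters 4 are shown to let the letters be seen in place, each as the 250 bases before the start, 5′ to 3′ on the gene's strand, with matches in capitals. Ndufa11 (chr17:56717512-56717761, plus strand) and Ndufaf4 (chr4:24897833-24898082, plus strand) hold the NRF1 letters, Ndufa7 (chr17:33824322-33824571, plus strand) the YY1 letters and Ndufb6 (chr4:40279422-40279671, minus strand) the ETS letters on the opposite strand.
Ndufa11: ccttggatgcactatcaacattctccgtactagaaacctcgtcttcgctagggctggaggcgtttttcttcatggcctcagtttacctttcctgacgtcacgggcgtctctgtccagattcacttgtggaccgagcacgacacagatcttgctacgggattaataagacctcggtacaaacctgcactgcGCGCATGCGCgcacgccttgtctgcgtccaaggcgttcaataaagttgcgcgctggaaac
Ndufaf4: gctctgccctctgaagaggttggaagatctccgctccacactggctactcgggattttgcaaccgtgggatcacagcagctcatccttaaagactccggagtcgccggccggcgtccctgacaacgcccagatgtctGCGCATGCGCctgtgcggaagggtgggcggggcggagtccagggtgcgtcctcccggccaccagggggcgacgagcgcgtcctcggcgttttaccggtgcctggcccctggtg
Ndufa7: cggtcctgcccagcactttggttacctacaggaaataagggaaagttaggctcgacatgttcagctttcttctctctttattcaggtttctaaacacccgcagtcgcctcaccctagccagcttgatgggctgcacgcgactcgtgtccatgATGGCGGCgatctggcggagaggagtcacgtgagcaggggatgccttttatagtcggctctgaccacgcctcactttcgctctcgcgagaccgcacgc
Ndufb6: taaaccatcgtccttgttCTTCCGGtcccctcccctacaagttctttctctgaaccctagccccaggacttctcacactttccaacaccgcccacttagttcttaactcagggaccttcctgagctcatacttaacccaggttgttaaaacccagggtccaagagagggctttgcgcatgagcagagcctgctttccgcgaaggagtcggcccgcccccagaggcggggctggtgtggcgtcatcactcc
Counted from the start of the gene, the matches begin at positions -60, -113, -98 and -232. The differences of the 4 genes were -0.53, -0.30, -0.53 and -0.44. A match describes the letters in this window and does not show binding.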

How the data were processed

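RNA-seq of 6 auditory nerve samples was used, 3 per label, grouped by their titles; each is 1 mouse. For each gene the deposited table has 1 column per sample, per the file headers. These whole numbers, treated as a score since the authors' scaling is not described, look from the values like counts normalized between libraries. It also holds the authors' false discovery rate and signed fold change; 2061 genes have no rate. The submitters' processing notes list TopHat2, DESeq2, Partek and mm10 with no role for each; filters and strand use are not given in the sources used here. Unused columns of samples numbered 0. Since the values are not raw counts, no count test was run.

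The scale was log2(value + 1), and a minimum mean of 1 removed 0 of the 17666 genes. The model, with the label alone, was limma 3.58.1 (R 4.3.3) with empirical Bayes moderation trended on the mean, adjusted by Benjamini-Hochberg at 0.05. An exact permutation test of 1 value, 3 against 3, cannot go below 0.1. The p-values set the difference between labels against the spread between libraries, in which mouse, dissection and library cannot be told apart. Transcript length is the median of a gene's basic protein-coding transcripts in GENCODE M21 (17480 genes); a lowess (span 0.3) of each library's deviations on log2 length was removed for the length correction. Other alternatives were the pseudocount, a filter at a mean of 50, 2 rescalings, array weights, no trend, a replicate block and leaving out each library. Copies were sought with blastn 2.17.0. In a simulation on 17666 genes, limma called 60 of 100 genes set to a 2-fold change, 90 of 100 set to a 4-fold change and 6 unchanged genes. The noise was independent and normal for each gene, and changed genes had a mean of at least 50. Effects shared by the genes of a library, such as the length trend, were absent, so these counts need not hold for the real libraries.

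Members and lists were chosen with earlier results of these data known. Every member was counted; 1 subunit is not reported by name here and is left out of the plots of single genes. Named with all values were members called by limma or in the authors' deposited table, the core subunits, Ndufa4 and Ndufa4l2. So were the 5 lowest and 5 highest subunits with a mean of at least 50 and the 2 lowest and 2 highest assembly factors. Ndufs5, BC002163, Bglap and members given by a difference alone are beyond that rule or chosen after their values were seen. In other lists only some of the called or most abundant genes were named, mostly by a difference alone. For complexes II to V the gene with the lowest difference of each list was among them.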

Additional observations from a re-analysis of the deposited data

How the results depend on the processing

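By limma 0 of 38 subunits and 0 of 8 assembly factors were called under each alternative, except 1 subunit, Ndufa3, without wildtype replicate 3 (0 to 1 when each library was left out), and again 1 with that library out and the length correction. Over all genes limma called 28; the count was 16 without the trend on the mean, 111 with array weights and 0 to 419 when each library was left out (87, 1 and 419 without wildtype replicates 1, 2 and 3, and 0 without each of the knockout-labelled libraries). Subunits at an unadjusted p under 0.05 numbered 28, and 20 to 29 with a library left out.

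The length correction with each library left out was added after seeing the data. It gave 23 called genes with all libraries and 3, 4, 443, 0, 0 and 0 without wildtype replicates 1 to 3 and knockout replicates 1 to 3, in that order. In the same order the subunits at an unadjusted p under 0.05 were 6, 4, 12, 4, 4 and 3 (7 with all libraries), and the subunit median log2 difference was -0.13, -0.16, -0.14, -0.17, -0.17 and -0.14 (-0.15 with all). For assembly factors the counts were 1, 1, 2, 1, 0 and 0 (1 with all), and the assembly factor median log2 difference (-0.049 with all) turned to 0.0092 without wildtype replicate 1. For the other libraries, in order, it was -0.0348, -0.11, -0.073, -0.031 and -0.023. The pair of Ndufa4 and Ndufa4l2 had a median of 0.030 after the correction. Of assembly factors, 2 had an unadjusted p under 0.05, 1 with upper-quartile rescaling, quantile normalization or no trend, and 0 to 4 with a library left out. The cause of each change was not tested.

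Same-numbered libraries had correlated deviations of -0.06, 0.10 and 0.25, so the numbers were not taken as pairs, and not each library correlated best with its own number (wildtype replicate 1 with knockout replicate 2, 0.47). With a replicate block limma called 7 genes, 0 of them subunits; 26 subunits and 0 assembly factors had an unadjusted p under 0.05. The block with the length correction called 0 genes, with 3 subunits and 1 assembly factor at an unadjusted p under 0.05 and medians of -0.15 and -0.049. With 3 libraries a label and unknown depth, differences of the size seen in most members were not resolved after adjustment over all genes.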
